A study of Zea mays with 56 samples.

Results

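The subject is 4 microRNA (miRNA) loci of the miR528, miR398 and miR408 families in maize leaves: 1 miR528 locus on chromosome 9, 2 miR398 loci on chromosomes 7 and 2, and 1 miR408 locus on chromosome 8. They were named by identifier (Cluster_66098, Cluster_49465, Cluster_16192 and Cluster_55557) out of 98 miRNA loci with deposited counts. They were selected on their levels, which earlier work on these files had found higher in plants with B chromosomes than in plants without, so that difference is described here and not tested. All 4 passed the filter on low counts, as did 71 of the 98 loci over all plants and 70 over the plants with B chromosomes. The RefSeq gene table for maize (Zm-B73-REFERENCE-NAM-5.0) lists MIR528b on chromosome 9, MIR398b on chromosome 7, MIR398a on chromosome 2 and MIR408b on chromosome 8. Coordinates were not compared with it, because the genome build of the deposited files is not given in the sources used here.

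Leaves of 28 plants of the inbred line W22 were profiled, and RNA-seq and small RNA-seq libraries were made from each. B chromosomes are dispensable extra chromosomes that some maize plants carry beside the normal A set, and fluorescence in situ hybridization had given their number in each seedling. The carriers comprised 4 plants each with 1, 2, 3 and 4 copies, 2 plants with 5, 3 plants with 6 and 3 plants with 7, written 1B to 7B, and 4 W22 plants without a B chromosome were the controls. All plants grew in a greenhouse to an age of 45 days, with no further treatment named. The plants of a group are described as biological replicates. The plant codes begin with EB in all carriers and with D in all controls, so B presence and plant series cannot be told apart. The identifiers of the gene table matched no named gene, so the leaf identity of the samples and the mRNA targets of these miRNAs were not analysed here.

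Plant miRNAs of about the length seen here are cut from hairpin transcripts and guide the cleavage or repression of transcripts with a matching site. In Arabidopsis the miR398 and miR408 families rise under copper shortage through the transcription factor SPL7. There miR398 represses Cu/Zn superoxide dismutases and miR408 represses plantacyanin and laccases, which are copper proteins. miR528 is found in grasses and other monocots, where its known targets include an ascorbate oxidase in rice and laccases in maize. These families are therefore often called copper miRNAs.

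The most abundant RNA of each locus is shown because it tells which of the 4 loci have a leading RNA in common, with its seed (bases 2 to 8 from the 5′ end) in capitals. The sequences were read from the authors' deposited locus table.
miR528 locus: cCUGUGCCugccuccuccauu
chromosome 7 miR398 locus: uGUGUUCUcaggucgcccccg
chromosome 2 miR398 locus: uGUGUUCUcaggucgcccccg
miR408 locus: cUGCACUGccucuucccuggc

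The miR398 loci share 1 sequence, and no other locus of the 98 has the seed of any of the 4. The miR528 locus spans 159738713 to 159738849 on the minus strand of chromosome 9, and its leading RNA resembles the 3′ arm of the hairpin rather than the 5′ arm known as the regulator of laccases. The chromosome 7 miR398 locus spans 39565488 to 39565658 on the plus strand, and the chromosome 2 miR398 locus spans 174592244 to 174592383 on the plus strand. The miR408 locus spans 39846385 to 39846534 on the minus strand of chromosome 8. The deposited table names no gene at any of the 4 positions.

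The loci differed in how their reads were made up, pooled over the 28 libraries. The chromosome 7 miR398 locus held 30436 reads, against 6336 for miR408, 4232 for miR528 and 3827 for the chromosome 2 miR398 locus. The leading RNA made up 46.8% of the reads at the miR528 locus, 55.0% and 56.1% at the chromosome 7 and chromosome 2 miR398 loci, and 49.2% at the miR408 locus, against a median of 64.0% over the 98 loci. Reads of 21 nt were 66.6% at miR528, 89.2% and 84.3% at the miR398 loci and 64.4% at miR408 (median of all loci 81.2%). The rest had different lengths: 30.2% of the miR528 reads were 22 nt (median 3.98%), and 28.3% of the miR408 reads were 20 nt (median 1.98%). Uniquely placed reads were 82.9% at miR528, 30.0% and 30.1% at the chromosome 7 and chromosome 2 miR398 loci and 9.20% at miR408 (median 25.9%). The level of miR408 and the split of miR398 reads between chromosomes 7 and 2 therefore rest on how reads with several matches were placed, which is not given in the sources used here.

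Small RNA libraries held 204339 to 909871 reads in carriers and 725230 to 1070937 in controls, as recovered from the deposited counts and the deposited RPM (reads scaled to a common library size). Counts on the 98 miRNA loci ranged from 17487 to 120136 per library, with 3B replicate 1 the shallowest. No pair of libraries of a group agreed within counting noise (lowest chi-square per degree of freedom 4.67). Each locus is given below as RPM of the small RNA library and, for relations between plants, as log2 CPM (counts scaled to the miRNA total of a library, with TMM factors that correct for differences in composition). Leaves were sampled in bulk, so fewer cells making a miRNA and less of it per cell cannot be told apart.

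The miR528 locus was counted at 13, 6, 10 and 19 reads in the 4 controls, so its level there is the least precise of the 4 loci. It stood at 13.96, 7.70, 13.8 and 17.7 RPM in the control plants, at 217, 171, 94.99 and 76.6 RPM in 1B, at 132, 218, 129 and 292 RPM in 2B, and at 245, 499, 489 and 199.9 RPM in 3B. It reached 254, 159.8, 405 and 227 RPM in 4B, 375 and 43.2 RPM in 5B, 115, 158 and 135 RPM in 6B, and 255, 317 and 386 RPM in 7B. Every carrier lay above every control. The carrier mean was 233 ± 125 RPM (SD, n = 24) and the control mean 13.3 ± 4.15 RPM (SD, n = 4). The means of log2 RPM differed by 3.97 and those of log2 CPM by 3.59, and log2 differences of levels below are likewise differences of mean log2 values. Among all 71 loci that passed the filter, 5 (7.04%) had carriers wholly above controls in RPM and 0 (0.0%) wholly below, which is the contrast that chose the members.

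The chromosome 7 miR398 locus was the most abundant of the 4 in every plant. Controls had 391, 595, 550.2 and 393 RPM, 1B plants 1514, 1431, 1018 and 1070.2 RPM, 2B plants 1661, 1875, 1109 and 2425 RPM, and 3B plants 1786, 2182, 1993 and 1758 RPM. The 4B plants had 1386, 1103, 2657 and 1849 RPM, the 5B plants 2285 and 648 RPM, the 6B plants 1019.9, 1298 and 928 RPM, and the 7B plants 1876, 1718 and 1882 RPM. Carriers and controls did not overlap in RPM, with the lowest carrier (5B replicate 2, 648 RPM) close above the highest control (595 RPM). In CPM 23 of 24 carriers lay above the highest control. The means were 1603 ± 515 RPM in carriers (n = 24) and 482 ± 106 RPM in controls (n = 4), a log2 difference of 1.68 in RPM and 1.30 in CPM.

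The chromosome 2 miR398 locus carried the same sequence at a lower level. Controls had 34.4, 57.8, 66.2 and 38.3 RPM, 1B plants 172, 176, 107 and 107 RPM, 2B plants 168, 234, 149 and 346 RPM, and 3B plants 186, 255, 333 and 231 RPM. The 4B plants had 175, 135, 358 and 258 RPM, the 5B plants 323 and 37.8 RPM, the 6B plants 106, 169.5 and 109.9 RPM, and the 7B plants 221, 217 and 281 RPM. In RPM, 23 of 24 carriers lay above the highest control, and 5B replicate 2 lay among the controls. The means were 202 ± 85.1 RPM in carriers (n = 24) and 49.2 ± 15.3 RPM in controls (n = 4), a log2 difference of 1.94 in RPM and 1.56 in CPM.

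The miR408 locus overlapped most between carriers and controls. Controls had 38.7, 79.6, 121 and 62.6 RPM, 1B plants 139, 287, 90.4 and 123 RPM, 2B plants 224, 318, 255 and 589 RPM, and 3B plants 401, 350.2, 429 and 372 RPM. The 4B plants had 302, 132, 565 and 515 RPM, the 5B plants 545 and 52.2 RPM, the 6B plants 201, 299.6 and 322 RPM, and the 7B plants 473, 395 and 760.3 RPM. Above the highest control lay 22 of 24 carriers in RPM and 19 of 24 in CPM. The means were 339 ± 177 RPM in carriers (n = 24) and 75.5 ± 34.8 RPM in controls (n = 4), a log2 difference of 2.04 in RPM and 1.66 in CPM.

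**Figure D1:**
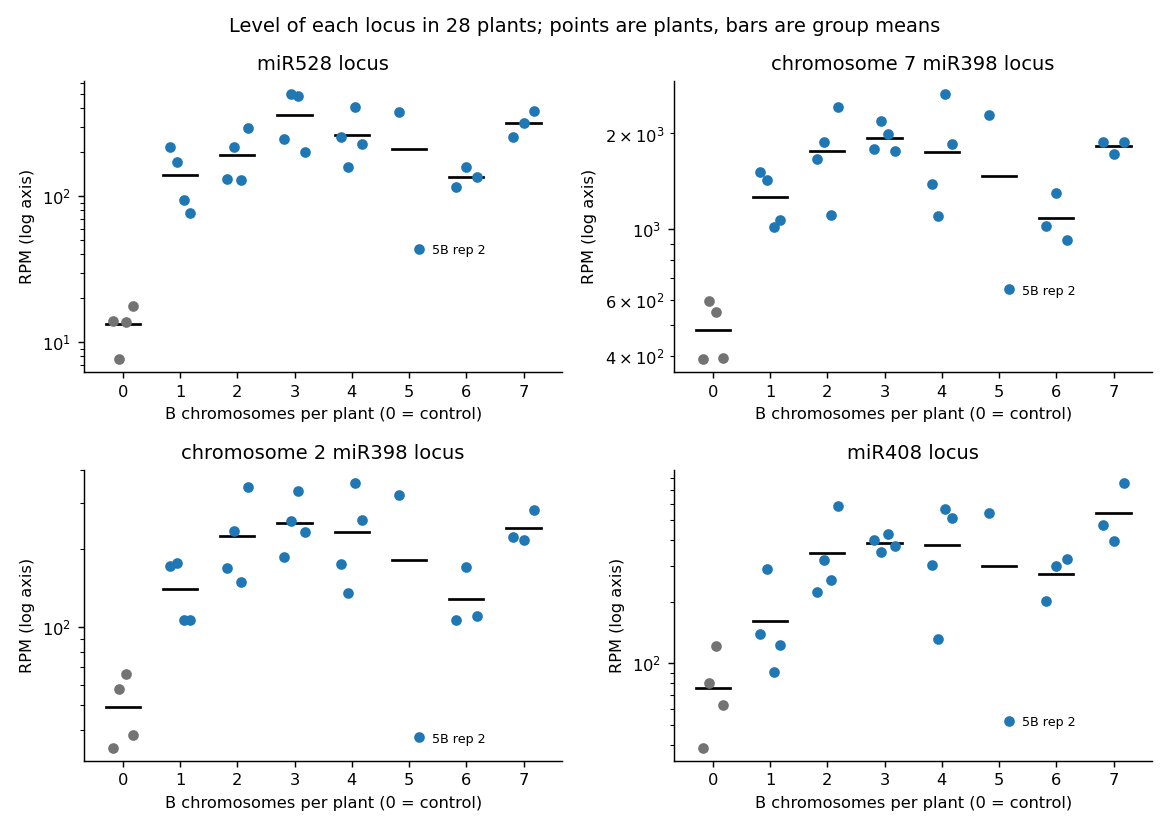
Level of each locus (RPM of the small RNA library, log axis) against the number of B chromosomes, where 0 marks controls; points are plants and bars group means. Carriers of the miR528 locus (43.2 to 499 RPM) lie above all controls (7.70 to 17.7 RPM), and 5B replicate 2 is the lowest carrier at each locus.

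The size of these differences depended on the scaling. The median log2 difference, carriers minus controls, was 1.99 in RPM for the 4 loci and 0.24 for the 68 loci counted in every library, and it was 1.61 and -0.14 in TMM-scaled CPM. RPM and CPM differ in their denominator, and the share of small RNA reads on miRNA loci differed between the groups. It was 11.8% ± 1.48 in carriers (SD, n = 24) and 9.23% ± 1.51 in controls (SD, n = 4; log2 difference 0.35, two-sided exact permutation p = 0.00303). Without the 4 loci the shares were 11.5% ± 1.44 in carriers and 9.17% ± 1.53 in controls (exact permutation p = 0.00459). Total small RNA reads averaged 747497 ± 151313 in carriers and 876498 ± 156235 in controls (log2 difference -0.26, exact permutation p = 0.188). The 4 loci together took 0.772% to 3.29% of the miRNA counts in carriers (median 1.94%) and 0.451% to 0.981% in controls (median 0.695%).

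The authors' deposited table gives each copy number against the same 4 controls, so these comparisons share their control plants. For miR528 the log2 fold changes in the authors' deposited table from 1B to 7B were 3.37, 3.83, 4.73, 4.26, 3.95, 3.30 and 4.54. For the chromosome 7 miR398 locus the authors' deposited table holds 1.39, 1.88, 2.00, 1.86, 1.61, 1.17 and 1.92 in the same order. For the chromosome 2 miR398 locus the authors' deposited table holds 1.53, 2.20, 2.38, 2.24, 1.88, 1.40 and 2.30, and for miR408 1.09, 2.20, 2.37, 2.33, 1.98, 1.87 and 2.85. All 4 loci had a lower value in 6B than in 5B or 7B.

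Among carriers alone, which leaves the selecting contrast out, no locus changed with the number of B chromosomes at the threshold. With edgeR's quasi-likelihood test on counts, 0 of 70 loci (0.0%) were called at a Benjamini-Hochberg adjusted p under 0.05, and 14 had an unadjusted p under 0.05. DESeq2 called 1 locus, which was not among the 4. The slope of miR408 was 0.18 ± 0.07 log2 units per copy (SE; 95% interval 0.04 to 0.32; edgeR adjusted p = 0.132), or 13.0% per copy. The slope of miR528 was 0.10 ± 0.07 (95% interval -0.05 to 0.24, edgeR adjusted p = 0.366). The miR398 slopes were 0.01 ± 0.04 on chromosome 7 (95% interval -0.07 to 0.10, edgeR adjusted p = 0.886) and 0.03 ± 0.06 on chromosome 2 (95% interval -0.08 to 0.15, edgeR adjusted p = 0.751). The median slope was 0.06 over the 4 loci and -0.01 over all 70.

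A test for any difference among the 7 carrier groups called 1 of 70 loci (1.43%) with edgeR and none of the 4. The edgeR adjusted p was 0.202 for miR528, 0.488 and 0.526 for the chromosome 7 and chromosome 2 miR398 loci and 0.240 for miR408. Leaving out 5B replicate 1 changed the outcome at miR528, the chromosome 2 miR398 locus and miR408. That fit leaves 5B with 1 plant assumed to vary like the other groups. The plant left, 5B replicate 2, was the lowest carrier at each locus. The fit cannot tell a group difference from that plant, so nothing is read from it. From 1B to 7B the group means of miR528 were 140 ± 65.5, 193 ± 77.9, 358 ± 158, 262 ± 104, 209 ± 235, 136 ± 21.4 and 319 ± 65.2 RPM (SD, n = 4, 4, 4, 4, 2, 3 and 3). In the same order of groups and n, miR408 had 159.98 ± 87.2, 346 ± 166, 388 ± 34.5, 378 ± 200.1, 299 ± 348, 274 ± 64.4 and 543 ± 192 RPM. At both loci the intervals of mean ± SD of neighbouring copy numbers overlapped at every step except that to 7B, which lay above 6B, and the 5B spread was the widest of the 7 groups.

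The 4 loci differed in how much they varied between plants with B chromosomes. Over the 24 carriers miR408 had the largest log2 SD of the 70 loci (0.88) and miR528 ranked 2 (0.79). The chromosome 2 miR398 locus ranked 5 (0.65) and the chromosome 7 miR398 locus 25 (0.45), and the median over the 70 loci was 0.40. The gap between the miR398 loci also rests on how reads matching both were placed, so it was not assigned to the loci. Without 5B replicate 2, left out after the data were seen, miR408 ranked 2 (0.75), miR528 3 (0.69), the chromosome 2 miR398 locus 18 (0.50) and the chromosome 7 miR398 locus 37 (0.40). The highest carrier exceeded the lowest 13.9-fold for miR408, 8.87-fold for miR528, 8.62-fold for the chromosome 2 miR398 locus and 3.93-fold for the chromosome 7 miR398 locus, all in CPM. Without 5B replicate 2 the folds were 8.28 for miR408, 5.10 for miR528, 3.47 for the chromosome 2 miR398 locus and 2.75 for the chromosome 7 miR398 locus.

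Some plants were high or low at all 4 loci. In log2 CPM, 5B replicate 2 was the lowest of the 24 carriers at each locus. The plants 5B replicate 2, 1B replicate 3 and 6B replicate 1 were among the lowest 6 at all 4 loci, and 4B replicate 3, 5B replicate 1 and 7B replicate 3 were among the highest 6 at all 4. Both 5B plants are thus at opposite ends. The summed level of genes specific to the B chromosome was 1045 FPKM in 5B replicate 2 and 902 FPKM in 5B replicate 1. In controls it was 0.899 to 1.77 FPKM (FPKM scales fragments by gene length and library size). These genes were picked as low in controls and expressed in carriers, so the gap to controls is built in. Why 5B replicate 2 was low was not tested.

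Over the 24 carriers the levels of all 6 pairs of the 4 loci were correlated. Each Pearson r below has a permutation p of 1e-05, the smallest that 100000 resamples can give, and an adjusted p of 0.000779 over all 2415 pairs of the 70 loci. The miR398 loci, which share reads, gave r = 0.94 (Spearman rho 0.92, and r = 0.93 without the 2 plants farthest from the median). The miR528 locus, which shares neither seed nor sequence with miR398, gave r = 0.90 with the chromosome 2 miR398 locus (rho 0.90, r without 2 plants 0.86) and r = 0.86 with the chromosome 7 miR398 locus (rho 0.83, 0.81 without 2 plants). The covariation was thus also present between loci whose leading RNAs have no run of 12 bases in common.

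The miR408 locus was correlated with each of the others. It gave r = 0.87 with the chromosome 2 miR398 locus (rho 0.83, 0.79 without 2 plants), r = 0.81 with miR528 (rho 0.75, 0.69 without 2 plants) and r = 0.80 with the chromosome 7 miR398 locus (rho 0.79, 0.70 without 2 plants). The adjusted permutation p of rho over the 2415 pairs lay between 0.00127 and 0.00724 for the 6 pairs. The plants left out were 5B replicate 2 in every pair, with 1B replicate 4 or 4B replicate 3. Without 5B replicate 2 alone the 6 values of r lay between 0.71 and 0.94.

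**Figure D2:**
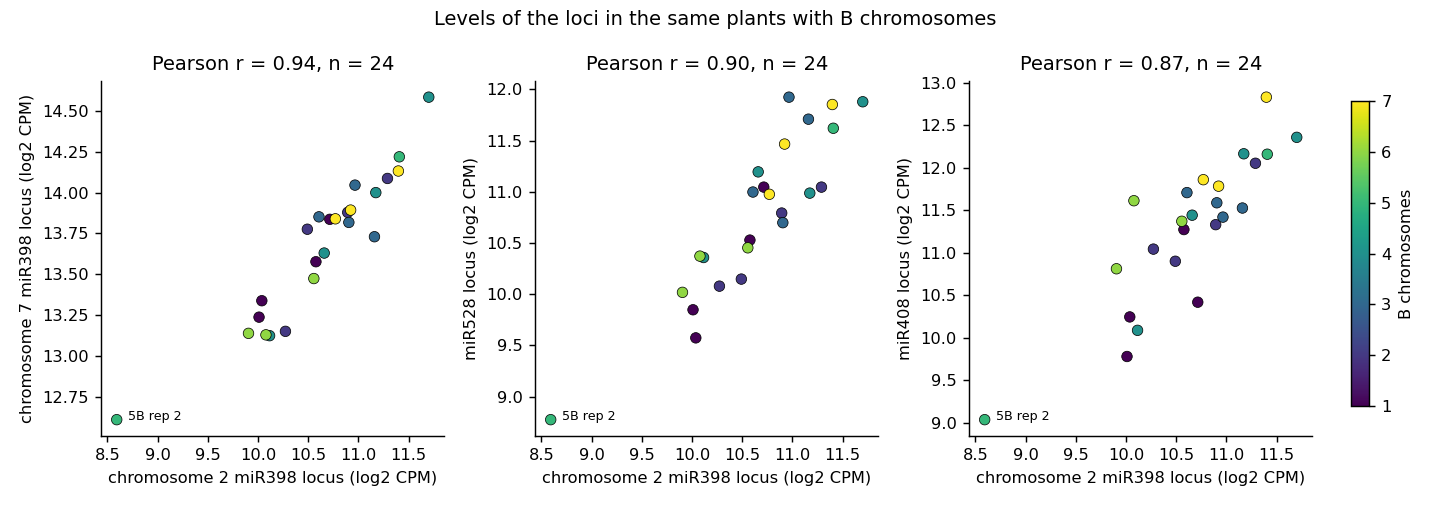
Level of the chromosome 7 miR398, miR528 and miR408 loci against the chromosome 2 miR398 locus (log2 CPM) in the 24 plants with B chromosomes, coloured by copy number. Pearson r is 0.94, 0.90 and 0.87, and 5B replicate 2 is the lowest point in each panel.

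Such correlations were rare among the other loci. Of all 2415 pairs, 54 (2.24%) had a positive correlation past the threshold, and the median r was -0.01 with a range of -0.41 to 0.50 between the 5th and 95th percentiles. Many high values came from loci with like sequences: of the 51 pairs whose leading RNAs share a run of 12 bases, 24 had an r of 0.8 or more. Of the 2364 pairs that share no such run, 24 (1.02%) passed the threshold and 5 (0.212%) had an r of 0.8 or more, and 4 of those 5 were pairs of the copper loci. The fifth, with r = 0.94, lay outside them. The 2 miR398 loci share a leading RNA and reads. Their pairs with miR528 and with miR408 are therefore not separate observations, and the count of 4 overstates how many relations were seen. The split by shared bases was made after the data were seen.

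**Figure D3:**
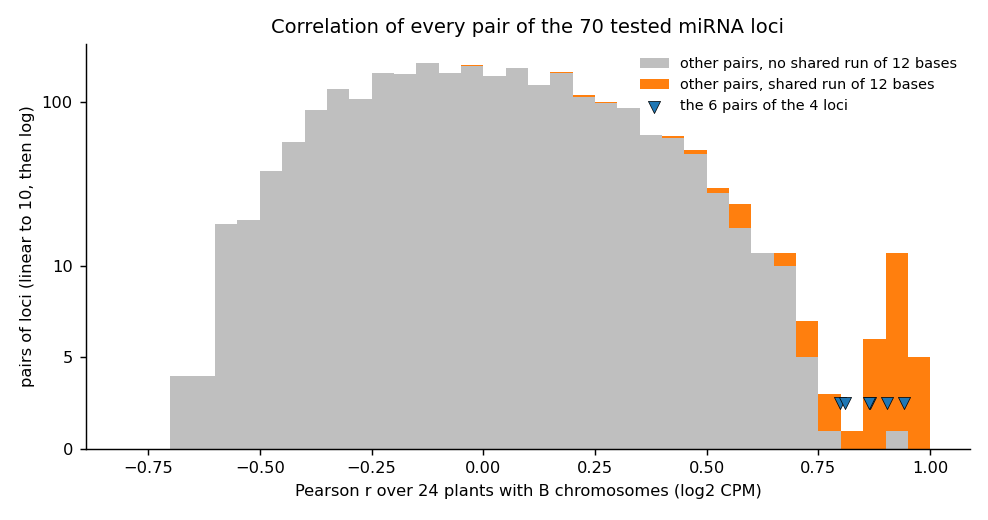
Number of pairs of miRNA loci (linear to 10, then log) by their Pearson r over the 24 plants with B chromosomes, with pairs that share a run of 12 bases in orange and other pairs in grey. Triangles mark the 6 pairs of the miR528, miR398 and miR408 loci, between 0.80 and 0.94, and most grey pairs lie between -0.41 and 0.50.

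No other miRNA locus followed these 4. In the 264 pairs of 1 of them with another locus, the highest r was 0.44 and 0 passed the threshold in the positive direction. The loci most like them by Pearson r of log2 CPM over 24 carriers were Cluster_3485 (r = 0.37 with miR528, 0.33 with chromosome 7 miR398, 0.43 with chromosome 2 miR398 and 0.44 with miR408) and Cluster_19615 (0.35, 0.38, 0.33 and 0.31). The next were Cluster_43245 (0.27, 0.29 and 0.28 with miR528 and the chromosome 7 and chromosome 2 miR398 loci) and, for miR408, Cluster_47046 (0.23). Their adjusted permutation p lay between 0.265 and 0.649 over the 2415 pairs. The leading RNA of the most similar locus shares no seed with the members.
Cluster_3485: uUGGGAGCcacaaaacugaag

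In the other direction 7 of all 2415 pairs passed the threshold, and 6 of the 2145 pairs that hold none of the 4 loci. Such calls were thus not particular to these loci. Of the 264 pairs 1 passed, miR408 with Cluster_34951 (chromosome 4, 249237777 to 249237945). It had r = -0.69 and rho = -0.78 over the 24 carriers (adjusted permutation p = 0.0152). It was singled out after its value was seen, and its adjusted p was 0.0581 in RPM and 0.0856 without 7B replicate 3. The leading RNA of that locus, shown for comparison with miR408, is a different sequence.
Cluster_34951: uGAAGAGAauugagggggcua

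Ratios between loci of the same plant need no scaling and separate the loci further. In carriers the chromosome 7 miR398 locus had 8.06 times the reads of the chromosome 2 locus (median; range 5.99 to 17.1), against 10.3 times in controls (8.31 to 11.4), and the highest ratio was that of 5B replicate 2. The log2 SD of this ratio among carriers was 0.29, where counting error alone gives 0.15. That error does not cover how reads matching both loci were placed, so the excess was not assigned to the loci. The miR528 locus had 1.14 times the reads of the chromosome 2 miR398 locus in carriers (0.719 to 1.95) and 0.307 times in controls (0.133 to 0.463), and the ranges did not overlap. Counting error alone puts 0.51 on the log2 of this ratio in controls, from their few miR528 reads. Relative to miR408 it had 0.616 times the reads in carriers (0.420 to 1.56) and 0.199 times in controls (0.0968 to 0.361), again without overlap. Of the 6 pairs of the 4 loci, 3 had ratios that did not overlap between carriers and controls, each with miR528, against 172 of 2278 pairs (7.55%) of the 68 loci counted in every library. This contrast is the one that chose the members. The chromosome 2 miR398 locus had 0.604 times the miR408 reads in carriers (0.341 to 1.23) and 0.669 times in controls (0.545 to 0.889), ranges that did overlap.

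The level of the loci did not move with sequencing depth among carriers at the threshold. The Pearson r of log2 CPM with the log2 of total small RNA reads was 0.05 for miR528 (rho -0.02). It was 0.01 and 0.14 for the chromosome 7 and chromosome 2 miR398 loci (rho -0.03 and 0.03) and 0.02 for miR408 (rho 0.01). Without the 2 plants farthest from the median depth r was -0.05, -0.09, -0.08 and -0.04. The permutation p was 0.828, 0.973, 0.476 and 0.927, and the adjusted p over 70 loci was 0.956, 0.973, 0.762 and 0.958. In RPM, or centred within copy-number group, r was up to 0.25 for miR528 and up to 0.05 for miR408. For the chromosome 7 and chromosome 2 miR398 loci it was up to 0.12 and 0.26. None was called under these settings (lowest adjusted permutation p = 0.463). Of the 70 loci, 1 (1.43%) was related to depth in CPM.

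The A-chromosome genes of the same 24 plants were then set against each locus. Of 40306 A genes in the table, 23672 were tested with limma on log2(FPKM + 0.5). For miR528 3 genes (0.0127%) were called at an adjusted p under 0.05, for the chromosome 7 miR398 locus 0 (0.0%), for the chromosome 2 miR398 locus 0 (0.0%) and for miR408 1 (0.00422%). At an unadjusted limma p under 0.05 there were 1015 genes (4.29%) for miR528, 1374 (5.80%) and 1217 (5.14%) for the chromosome 7 and chromosome 2 miR398 loci and 1647 (6.96%) for miR408. The median over the other 66 loci was 8.20%. Of those 66 loci, 46 had no called gene, and the highest had 2507.

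The gene called with miR408 was Zm00004b022108 (chromosome 4, 151271143 to 151274286). It had 25.2 to 64.4 FPKM in carriers (median 44.9, mean 45.6 ± 10.99, SD, n = 24), against 6.57, 6.25, 4.29 and 4.59 FPKM in controls (5.42 ± 1.15, n = 4), with no overlap. Carriers lay wholly above controls in 2225 of the 23672 tested A genes (9.4%) and wholly below in 1673 (7.07%). Among carriers it rose by 0.35 ± 0.05 log2 units per log2 unit of miR408 (SE; limma adjusted p = 0.00363; r = 0.83). The lowest carrier was 1B replicate 3 and the highest 4B replicate 3, which were also near the ends for miR408. The call was lost with the genes scaled by spike-in totals (limma adjusted p = 0.442) and with copy-number group in the fit (limma adjusted p = 0.324).

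The gene most closely related to miR528 was Zm00004b036103 (chromosome 7, 124076920 to 124078252), at 20.1 to 58.4 FPKM in carriers (median 38.7) and 18.3, 21.4, 31.7 and 22.3 FPKM in controls. Its slope was 0.41 ± 0.06 (SE; limma adjusted p = 0.00611; r = 0.82). The others called with miR528 were Zm00004b013954 (chromosome 5; 656 to 2443 FPKM in carriers, slope 0.46 ± 0.08) and Zm00004b017596 (chromosome 3; 0.758 to 2.66 FPKM, slope 0.44 ± 0.08), both with a limma adjusted p of 0.0353. Zm00004b013954 had 1516 ± 212 FPKM in controls (SD, n = 4) and 1429 ± 474 FPKM in carriers (SD, n = 24). Zm00004b017596 had 0.680 ± 0.211 FPKM in controls and 1.55 ± 0.635 FPKM in carriers. Leaving out 1 plant ended the call of Zm00004b013954 in 9 of 24 cases (adjusted p up to 0.183) and that of Zm00004b017596 in 17 of 24 (up to 0.242). Under 6 other settings each of the 2 kept its call in 1, and the replicate block gave both an adjusted p of 0.148. The call of Zm00004b036103 was lost with spike-in scaling (slope 0.38, limma adjusted p = 0.999999) and with copy-number group in the fit (slope 0.29, limma adjusted p = 0.390). All 4 called genes rose with the miRNA locus among carriers.

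The gene with the strongest negative relation was the same for all 4 loci, Zm00004b006568 (chromosome 2, 16732606 to 16737877), and it was called for none. It had 7.23 to 13.7 FPKM in carriers (median 9.36) and 11.5 ± 1.49 FPKM in controls (n = 4). Its slope was -0.22 on miR528, -0.43 and -0.28 on the chromosome 7 and chromosome 2 miR398 loci and -0.20 on miR408, with limma adjusted p of 0.202, 0.117, 0.489 and 0.197. Without 6B replicate 2 it was called with the chromosome 7 miR398 locus (limma adjusted p = 0.0440). Since the 4 loci move together, these are not separate observations. The strongest positive relation of the chromosome 7 miR398 locus was Zm00004b039025 on chromosome 10 (slope 0.995 ± 0.195, limma adjusted p = 0.211). It had 8.50 to 45.6 FPKM in carriers and 125, 163, 145 and 175 FPKM in controls. Carriers thus lay below all controls, as in 1673 of the 23672 tested A genes (7.07%). The miR398 locus was lower in controls, so the difference between the groups ran opposite to the slope among carriers. The strongest positive relation of the chromosome 2 miR398 locus was Zm00004b013954 (slope 0.51 ± 0.11, limma adjusted p = 0.495).

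**Figure D4:**
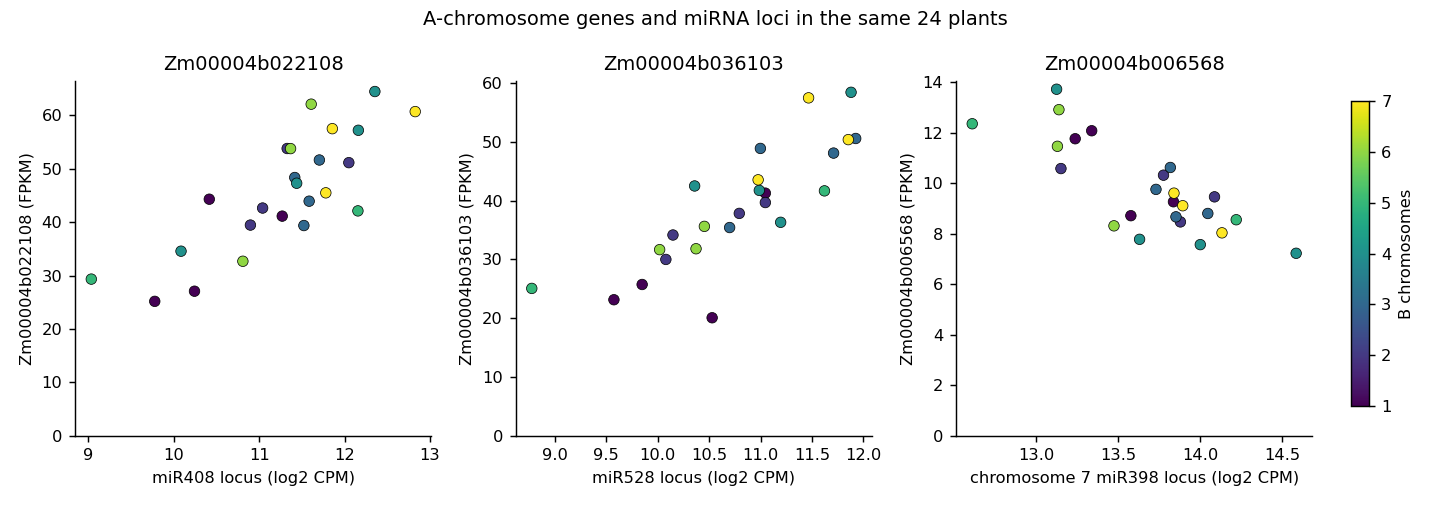
FPKM of 3 A-chromosome genes against the log2 CPM of a miRNA locus in the same 24 plants with B chromosomes, coloured by copy number. Zm00004b022108 rises with miR408 (r = 0.83) and Zm00004b036103 with miR528 (r = 0.82), while Zm00004b006568 runs opposite to the chromosome 7 miR398 locus (r = -0.79) without passing the threshold.

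The main axis of variation of the A genes was not related to the 4 loci at the threshold. The leading principal component among carriers held 11.7% of the variance. Its Pearson r was -0.08 with miR528, -0.08 and -0.05 with the chromosome 7 and chromosome 2 miR398 loci and 0.32 with miR408 (rho 0.05, 0.01, 0.09 and 0.37). The permutation p was 0.724, 0.712, 0.816 and 0.129, and the adjusted p over 70 loci was 0.831, 0.831, 0.895 and 0.400. Without the 2 plants farthest from the median r was 0.15, -0.02, 0.08 and 0.34. Of the 70 loci, 2 (2.86%) passed the threshold.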

How the data were processed

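The authors deposited raw read counts per miRNA locus, the same loci as RPM relative to the small RNA library, gene values in FPKM, counts of 92 ERCC spike-in RNAs and their own log2 fold changes, from an edgeR likelihood-ratio test per the file headers. Gene positions were taken from the authors' Cuffdiff table of p-values, none of which was used. Length classes, uniqueness and leading RNA of a locus come from pooled read counts over 28 libraries in the deposited locus table. The submitters' processing notes name cutadapt 1.16, TopHat2, Bowtie2, edgeR and Cuffdiff with no role. Build, annotation, adapter handling and placement of reads with several matches are not given in the sources used here. That the gene table holds FPKM was found from its values. It had been planned as counts, so limma replaced the count test.

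The members, lists and tests were chosen with earlier results of these data known. Members are described in full; a gene is named if it had the largest positive or negative limma statistic for a member at 1 FPKM or more, or if it was called. RefSeq family names were matched by symbol only (2 genes each for MIR397, MIR398, MIR408 and MIR528, 0 for MIR857), so MIR397 loci among the 98 were not identified. Counts were tested with edgeR 4.0.16 (quasi-likelihood, TMM, filterByExpr by group) in R 4.3.3, with DESeq2 1.42.0 as an alternative, and genes with limma 3.58.1 on log2(FPKM + 0.5) for genes reaching 0.5 FPKM in 2 or more libraries. Levels for correlations are log2 CPM with a prior count of 2. Permutation tests were two-sided, with Benjamini-Hochberg adjustment over all pairs or loci and a threshold of 0.05. Counting errors take reads as independent molecules and cover counting only. Scripts were tested on simulated data. RNA and small RNA libraries were joined by plant code. Alternatives were other scalings, no low filter, spike-in scaling, copy-number and replicate terms, and leaving out each plant.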

Additional observations from a re-analysis of the deposited data

How the results depend on the processing

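All 6 correlations between the 4 loci kept their call under 6 other settings and without each of the 24 carriers in turn (r from 0.71 to 0.96). For miR528 the count of 3 related A genes was 1 with RPM, 0 with spike-in scaling, 0 with copy-number group in the fit, 1 without a filter on low values, 1 with the replicate block, and 1 to 4 when single plants were left out (1 without 1B replicate 3 or 4, 3B replicate 1 or 3, 4B replicate 3, 6B replicate 1 or 2, or 7B replicate 3). For the chromosome 7 miR398 locus the count was 0 to 3 with plants left out (3 without 2B replicate 4, 1 without 6B replicate 2), and for the chromosome 2 miR398 locus it was 1 with copy-number group in the fit and 0 to 1 with plants left out (1 without 5B replicate 2). For miR408 it was 0 with spike-in scaling, 0 with copy-number group in the fit and 1 to 3 with plants left out (3 without 3B replicate 3, 2 without 2B replicate 4, 3B replicate 1, 4B replicate 2 or 7B replicate 3). The slope on miR408 of Zm00004b022108 was 0.31 to 0.37 in the other settings (limma adjusted p up to 0.442). With single plants left out, slopes per B copy ranged from 0.04 to 0.12 for miR528, from -0.0205 to 0.0339 and from -0.0141 to 0.0606 for the chromosome 7 and chromosome 2 miR398 loci, and from 0.11 to 0.22 for miR408 (edgeR adjusted p 0.0532 to 0.400). The edgeR adjusted p of the 7 carrier groups ranged from 0.0357 to 0.432 for miR528, from 0.0411 to 0.723 for the chromosome 2 miR398 locus and from 0.0363 to 0.483 for miR408. The r with depth ranged from -0.0832 to 0.253 for miR528, from -0.138 to 0.228 and from -0.00956 to 0.312 for the miR398 loci and from -0.122 to 0.271 for miR408, and the r with the leading A-gene component from -0.192 to 0.0380 for miR528 and from -0.159 to 0.0298 for the chromosome 2 miR398 locus. The cause of these changes was not tested. Over all loci, 0 to 5 were called for slope with plants left out (5 without 3B replicate 1, 2 without 3B replicate 4 or 5B replicate 2), and for the 7 groups 9 were called with DESeq2, 6 with small RNA depth as library size and 1 to 7 with plants left out (7 without 1B replicate 2).

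Replicate numbers do not pair the plants. Deviations from group means correlated at -0.00 on average over 87 pairs of plants with the same number (26 over 0.1), and at 0.00 over 254 pairs with other numbers (77 over 0.1). With the replicate block the 4 slopes were 0.08, 0.02, 0.04 and 0.19, none of them called, and the 6 correlations 0.80 to 0.95. The miR528 reads in controls (6 to 19 per library) limit the precision of that level, since counting error alone puts 0.46 on the log2 ratio of miR528 to chromosome 7 miR398 there.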

Other observations

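Later principal components of the A genes, added after the data were seen, were set against the same loci over the 24 carriers. The component holding 7.21% of the variance had r = 0.32 for miR528, 0.49 and 0.47 for the chromosome 7 and chromosome 2 miR398 loci and 0.51 for miR408 (rho 0.19, 0.38, 0.31 and 0.29). Their adjusted permutation p over 70 loci and 4 components was 0.463, 0.166, 0.200 and 0.150, so none passed the threshold. Without the 2 plants farthest from the median r was 0.06, 0.22, 0.19 and 0.20, so the values rest largely on those plants. The component holding 8.35% had r = 0.15, 0.09, 0.09 and 0.26 in the same order of loci (rho 0.16, 0.17, 0.11 and 0.41) and r = 0.32, 0.44, 0.41 and 0.47 without the 2 plants, with an adjusted permutation p of 0.719, 0.839, 0.839 and 0.555 over all plants.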
